A study of Gallus gallus with 6 samples.

Results

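Cholesterol is built from acetyl-CoA through mevalonate, squalene and lanosterol by a chain of enzymes in the cytosol and endoplasmic reticulum. When sterols run low, transcription factors of the SREBP family are released from the endoplasmic reticulum and switch on most genes of the chain together; INSIG proteins hold these factors back. In the ovary, granulosa and theca cells of the follicle use cholesterol as the starting material for progesterone, androgens and oestrogen, and in the hen much of it arrives in lipoproteins made by the liver. The genes examined here are HMGCS1, FDPS, SQLE, LSS, CYP51A1, DHCR7 and IDI1, which encode enzymes of the chain, and INSIG1, which is not an enzyme but the regulator that restrains it.

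The genes were followed by every probe set that had 1 of these 8 names as its only gene symbol in the platform's probe table, whatever its brightness. This gave 13 of the 38535 probe sets on the array, for 7 of the 8 genes, out of 13009 gene symbols that the array carries. HMGCS1, FDPS and CYP51A1 had 1 probe set each, SQLE and DHCR7 had a pair each, and LSS and INSIG1 had 3 each. No probe set was matched to IDI1, an isomerase of the chain, and it was not analysed here.

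The arrays hold ovarian RNA of 6 hens (Gallus gallus), 1 Affymetrix array per hen. In 3 hens the ovary carried a tumour (hens 4, LB14 and LB11), and in 3 it was normal (hens 36, LB3 and LB22). Per the design text the hens were alike in age and laying status, and a tumour was either limited to the ovary or had also seeded the abdomen; strain, exact age and the stage of single tumours are not given in the labels or design text. Whole ovary was taken, so each array averages follicles, stroma, vessels and, in cancer, tumour. The signal is a linear brightness that the authors' software had scaled to a trimmed mean of 500.1 on every array, so a shift of all transcripts together would not be visible, and 3 arrays per group limit the precision.

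The 2 groups differed widely in tissue markers. The summed signal of 11 granulosa and theca markers was 12174 to 23321 in the tumours, against 38823 to 54258 in the normal ovaries. The sum of 5 egg-white genes was 52673 to 99228 in the tumours and 583 to 1267 in the normal ovaries, where OVAL and SPINK7 were not above background on any array. RNA quality, as the log2 ratio of 3' to 5' signal of actin and GAPDH, was 0.14 ± 0.07 in cancer and 0.11 ± 0.11 in normal ovaries (SD, n = 3 each). An exact permutation test of that difference, two-sided, gave p = 0.8, and with 3 arrays a side it cannot go below 0.1. In bulk tissue, fewer cells of a type and less RNA per cell cannot be told apart.

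None of the cholesterol genes differed past the threshold. Signals were compared as log2(signal + 16) with limma over the 23063 probe sets whose mean signal was 66.9 or more, and the threshold was a Benjamini-Hochberg adjusted p of 0.05. 11 of the 13 probe sets, covering 6 genes, were bright enough to be tested; 0 were higher and 0 lower past the threshold, where limma called 0.234% of all tested probe sets higher and 0.0434% lower. At an unadjusted p under 0.05, 3 of the 11 were lower in cancer and 0 higher, beside 5.01% and 5.06% of all tested probe sets. Those 3 (HMGCS1, DHCR7 and a probe set of SQLE) were also the only ones of the 11 whose signals lay lower in every tumour than in every normal ovary, against 8.03% of all tested probe sets; 0 lay higher in every tumour, against 7.45%. Below, a gene is given by its brightest tested probe set, log2 differences are cancer minus normal on the shifted scale, and levels are not compared between probe sets.

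**Figure D1:**
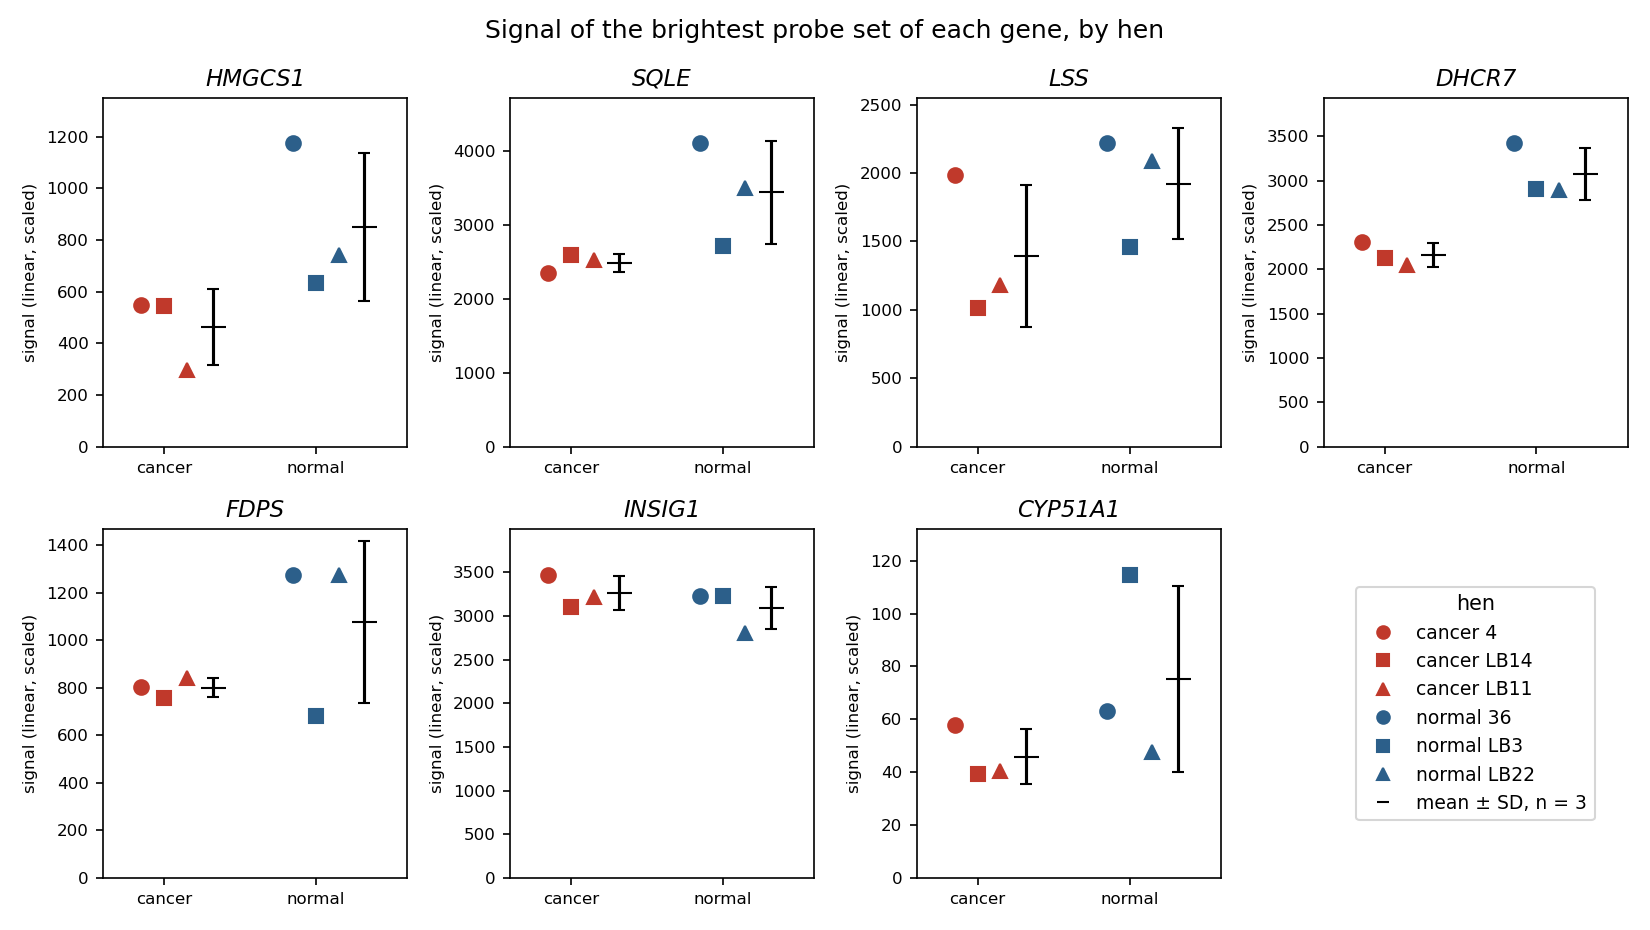
Signal (linear, scaled by the authors) of the brightest probe set of the 7 genes in each hen, cancer left and normal right, with the mean ± SD of each group (n = 3). For HMGCS1, SQLE and DHCR7 the 3 tumours sit below the 3 normal ovaries; for LSS, FDPS, INSIG1 and CYP51A1 the groups overlap, and CYP51A1 lies near background.

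HMGCS1, the synthase that condenses acetoacetyl-CoA with acetyl-CoA to HMG-CoA, had the largest difference of the 6 tested genes. It had signals of 549, 546 and 295 in tumours 4, LB14 and LB11, against 1174, 633 and 741 in normal hens 36, LB3 and LB22. Tumour LB11 was the lowest and normal hen 36 the highest, and the groups did not overlap. The mean was 463 ± 146 in cancer and 849 ± 286 in normal ovaries (SD, n = 3 each). The log2 difference was −0.85 (SE 0.32, 95% interval −1.57 to −0.14), a fold of 0.553 (0.336 to 0.910), and it was not past the threshold (limma adjusted p = 0.398). Of all tested probe sets, 2.46% had a lower difference.

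FDPS makes farnesyl diphosphate, the branch point from which sterols and prenyl groups are drawn. Its signals were 804, 758 and 840 in tumours 4, LB14 and LB11, against 1276, 682 and 1273 in normal hens 36, LB3 and LB22. The tumours lay close together, while normal hen LB3 was below all of them and the other normal hens well above. On the log2 scale the SD was 0.07 among tumours and 0.51 among normal ovaries. The difference was −0.37 (SE 0.26, 95% interval −0.96 to 0.23, limma adjusted p = 0.727), which leaves folds from 0.513 to 1.17 within the interval.

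Probe sets named IDI2 are also on this array. In mammals IDI2 is a relative of the isomerase gene IDI1; whether the chicken gene under this name does the work of IDI1 is not settled by the tables used. IDI2 was outside the fixed lists and was chosen after its values were seen. Its brightest probe set gave 5431, 2832 and 3847 in tumours 4, LB14 and LB11, against 4892, 4642 and 5194 in normal hens 36, LB3 and LB22. Tumour 4 was the highest of the 6 and the other tumours the lowest, so the groups overlapped. The difference was −0.33 (SE 0.23, limma adjusted p = 0.716), and −0.22 and −0.23 on the other two probe sets.

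SQLE, squalene epoxidase, adds the oxygen that starts the sterol ring and is a control point of the chain. On its brighter probe set the signals were 2352, 2589 and 2516 in tumours 4, LB14 and LB11, against 4097, 2716 and 3494 in normal hens 36, LB3 and LB22. The tumours were tightly grouped and lay below all normal ovaries, although LB3 at 2716 was close to tumour LB14. The difference was −0.45 (SE 0.19, 95% interval −0.87 to −0.02, limma adjusted p = 0.471). On the other probe set the signals were 1632, 1506 and 1273 in the tumours and 1984, 1478 and 1872 in the normal ovaries. There LB3 lay among the tumours, and the difference was −0.27 (SE 0.19, limma adjusted p = 0.727).

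LSS, lanosterol synthase, closes the rings to give the first sterol. Its brightest probe set had signals of 1984, 1011 and 1182 in tumours 4, LB14 and LB11, against 2216, 1461 and 2089 in normal hens 36, LB3 and LB22. Tumour 4 sat among the normal ovaries and the LB tumours were the lowest of the 6. The difference was −0.50 (SE 0.28, 95% interval −1.13 to 0.14, limma adjusted p = 0.620). The second probe set had the same division, with 1033 in tumour 4, 430 in LB14 and 495 in LB11, against 971, 646 and 930 in the normal ovaries, and a difference of −0.46 (SE 0.34). The third, dimmer, had a difference of −0.18 (SE 0.27), with tumour LB14 lowest at 133.

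The first and last steps from lanosterol to cholesterol gave unequal data. DHCR7, the reductase that turns 7-dehydrocholesterol into cholesterol, had signals of 2311, 2129 and 2050 in tumours 4, LB14 and LB11, against 3418, 2905 and 2899 in normal hens 36, LB3 and LB22. The tumours were all below the normal ovaries, with 2311 in the highest tumour against 2899 in the lowest normal ovary. The mean was 2163 ± 134 in cancer and 3074 ± 298 in normal ovaries (SD, n = 3 each). The difference was −0.50 (SE 0.16, 95% interval −0.87 to −0.14), a fold of 0.707 (0.548 to 0.911), with the lowest adjusted p of the 11 probe sets (limma adjusted p = 0.322). A second DHCR7 probe set was dim, at 17.2 to 39.1 in cancer and 4.86 to 42.2 in normal ovaries, above background on 1 of 6 arrays, and was not tested.

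CYP51A1, the lanosterol demethylase, was also below the signal filter and was not tested. Its signals were 57.9, 39.2 and 40.4 in tumours 4, LB14 and LB11, against 63.2, 115 and 47.7 in normal hens 36, LB3 and LB22. It was above the array's background limit in tumour 4 and in all 3 normal ovaries, and not in tumours LB14 and LB11. Here LB3, low for most of the other genes, was the highest hen. With the filter lifted the difference was −0.51 (SE 0.37, limma adjusted p = 0.807).

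INSIG1 had a difference near 0. This endoplasmic reticulum protein retains the SREBP escort SCAP when sterols are plentiful, and its own gene is an SREBP target. Signals on its brightest probe set were 3472, 3098 and 3222 in tumours 4, LB14 and LB11, against 3225, 3230 and 2809 in normal hens 36, LB3 and LB22. The groups overlapped and spread little. The difference was 0.08 (SE 0.15, 95% interval −0.27 to 0.43, limma adjusted p = 0.916), which leaves folds from 0.830 to 1.35 within the interval. The other two probe sets had differences of 0.08 and −0.05. Whether INSIG1 differed from the enzymes beyond error was not tested.

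**Figure D2:**
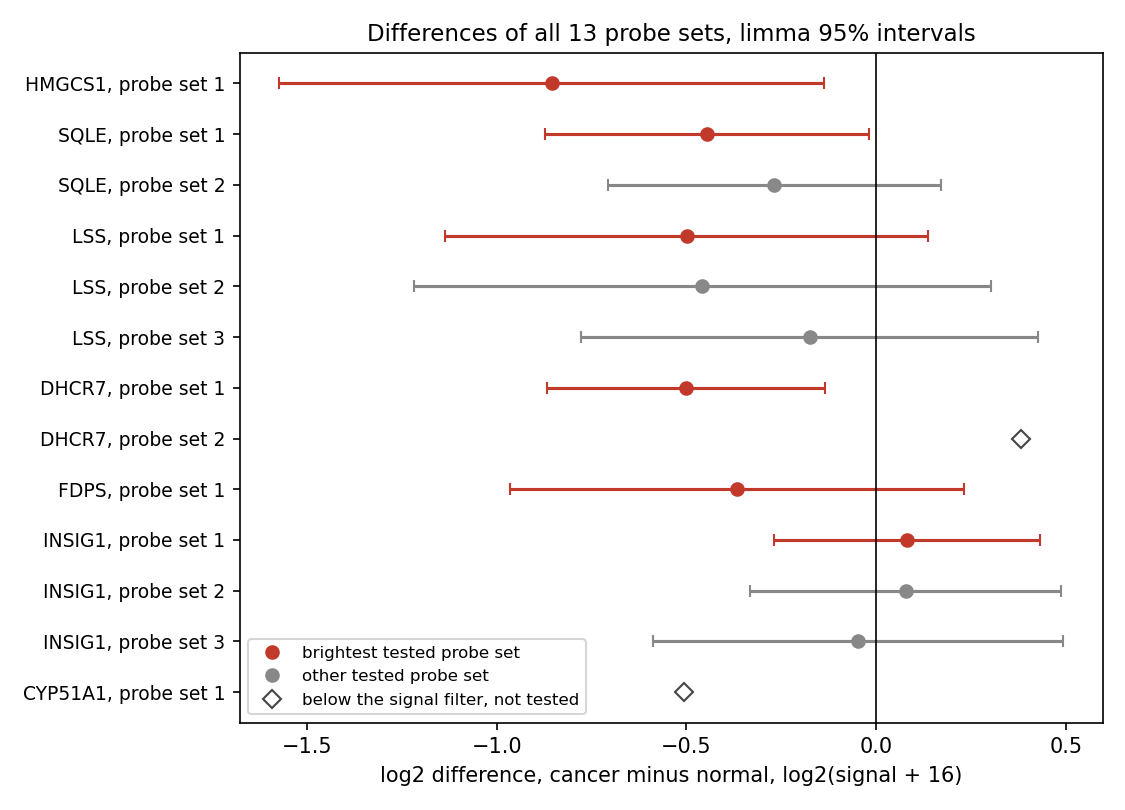
Log2 difference (cancer minus normal, log2(signal + 16)) of all 13 probe sets, with limma's 95% interval for the 11 that were tested (red, brightest of the gene; grey, others) and open diamonds for the 2 below the filter. The interval lies wholly below 0 for HMGCS1, for 1 probe set of SQLE and for 1 of DHCR7; the 3 probe sets of INSIG1 lie at 0.08, 0.08 and −0.05.

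Across the 13 probe sets 10 differences were negative and 3 positive. Several of the 13 share a gene and are not separate observations. Without a filter 47.9% of all probe sets on the array were negative. Over the 6 tested genes the median difference was −0.47, beside −0.02 over all 10671 tested genes. 5 of the 6 were negative, where 52.1% of all tested genes were. CYP51A1 is in neither count of 6.

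**Figure D3:**
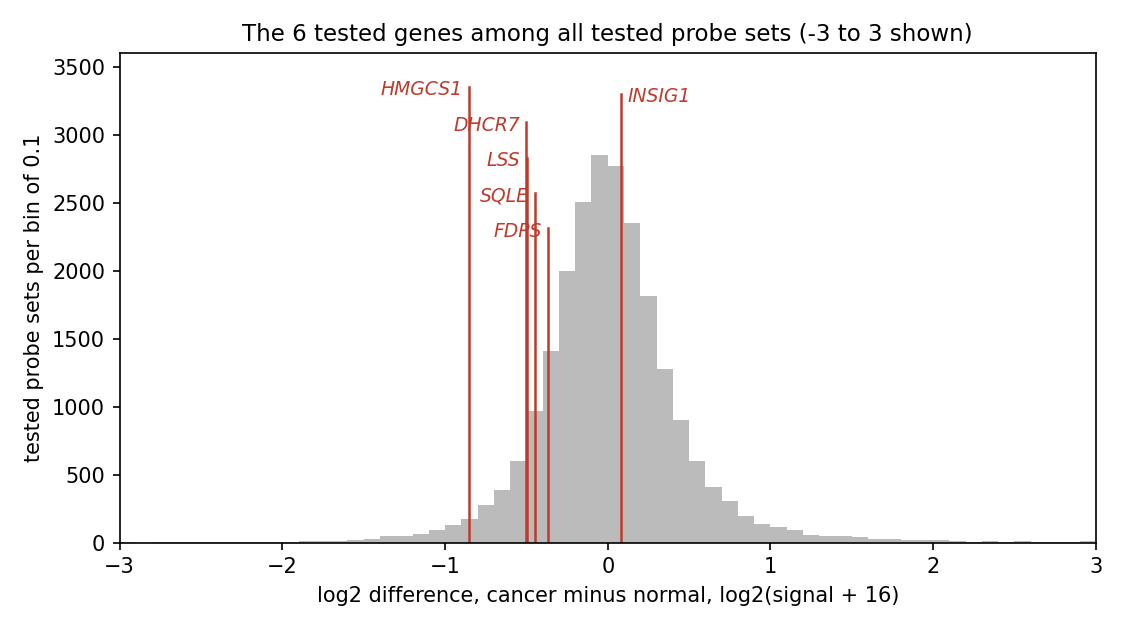
Number of tested probe sets per bin of 0.1 on the log2 difference axis (cancer minus normal), with red lines at the 6 tested genes. HMGCS1 at −0.85 lies in the lower flank, DHCR7, LSS, SQLE and FDPS between −0.50 and −0.37, and INSIG1 at 0.08 near the centre.

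Hens of 1 group also differed among themselves. Normal hen 36 had the highest signal of the 6 hens for 5 of the 6 tested genes, all but INSIG1. Normal hen LB3 was the lowest normal hen for 4 of the 6. As a mean over the 6 genes, the log2 deviation from the normal mean was −0.27 in tumour 4, −0.47 in LB14 and −0.56 in LB11, against 0.25 in normal hen 36, −0.28 in LB3 and 0.02 in LB22. Normal hen LB3 thus lay level with tumour 4. Without LB3 the number of the 11 tested probe sets lying lower in every tumour became 6 (14.2% of all tested probe sets), and without tumour 4 it became 5 (15.2%). Among the hens with the LB prefix alone, a prefix whose meaning the labels do not give, the median difference over the 6 genes was −0.37 and 0 of the 11 probe sets passed the threshold.

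Other enzymes of the chain were taken from a list of 15, of which 11 were measured and tested. 0 of the 11 were past the threshold in either direction, 8 differences were negative, and the median was −0.13. Of all tested genes 0.365% were called higher and 0.0562% lower. The 3 lowest p-values belonged to enzymes that act from squalene synthesis onward. NSDHL, which acts in the removal of the methyl groups at carbon 4 of the sterol, had signals of 4064, 3329 and 3440 in tumours 4, LB14 and LB11, against 5060, 4800 and 5374 in normal hens 36, LB3 and LB22. Its groups were well apart, and the difference was −0.49 (SE 0.15, limma adjusted p = 0.302). FDFT1, squalene synthase, had 3938, 2254 and 3346 in the tumours and 5445, 4126 and 5190 in the normal ovaries, with a difference of −0.65 (SE 0.23, limma adjusted p = 0.363). MSMO1, the oxidase of the same demethylation, had 7477, 6839 and 6924 in the tumours and 8975, 8835 and 9031 in the normal ovaries. The normal ovaries hardly differed for MSMO1, and the difference was −0.34 (SE 0.13, limma adjusted p = 0.413).

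These 3 of the 11 were free of overlap with the tumours lower, beside 9.41% of all tested genes. Among the other members of the list, ACAT2, which makes acetoacetyl-CoA, was at −0.06, the mevalonate kinases MVK and PMVK at −0.15 and −0.13, and the decarboxylase MVD at 0.02. The other tested probe sets of ACAT2 and MVK were positive, at 0.49 (SE 0.32) and 0.07. GGPS1, which takes isoprenoids away from sterols toward geranylgeranyl diphosphate, was positive at 0.34 (SE 0.18, limma adjusted p = 0.590). The remaining late enzymes had wide spread. SC5D, the sterol desaturase before DHCR7, had 355, 144 and 468 in tumours 4, LB14 and LB11, against 390, 293 and 281 in normal hens 36, LB3 and LB22, and a difference of −0.13 (SE 0.39). HSD17B7, the reductase of the demethylation, and LBR, the lamin B receptor with sterol reductase activity, had differences of −0.06 and 0.21. The other probe sets of LBR were negative, at −0.10, −0.20 and −0.09. Those of SC5D and HSD17B7 were at −0.32 and −0.002.

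**Figure D4:**
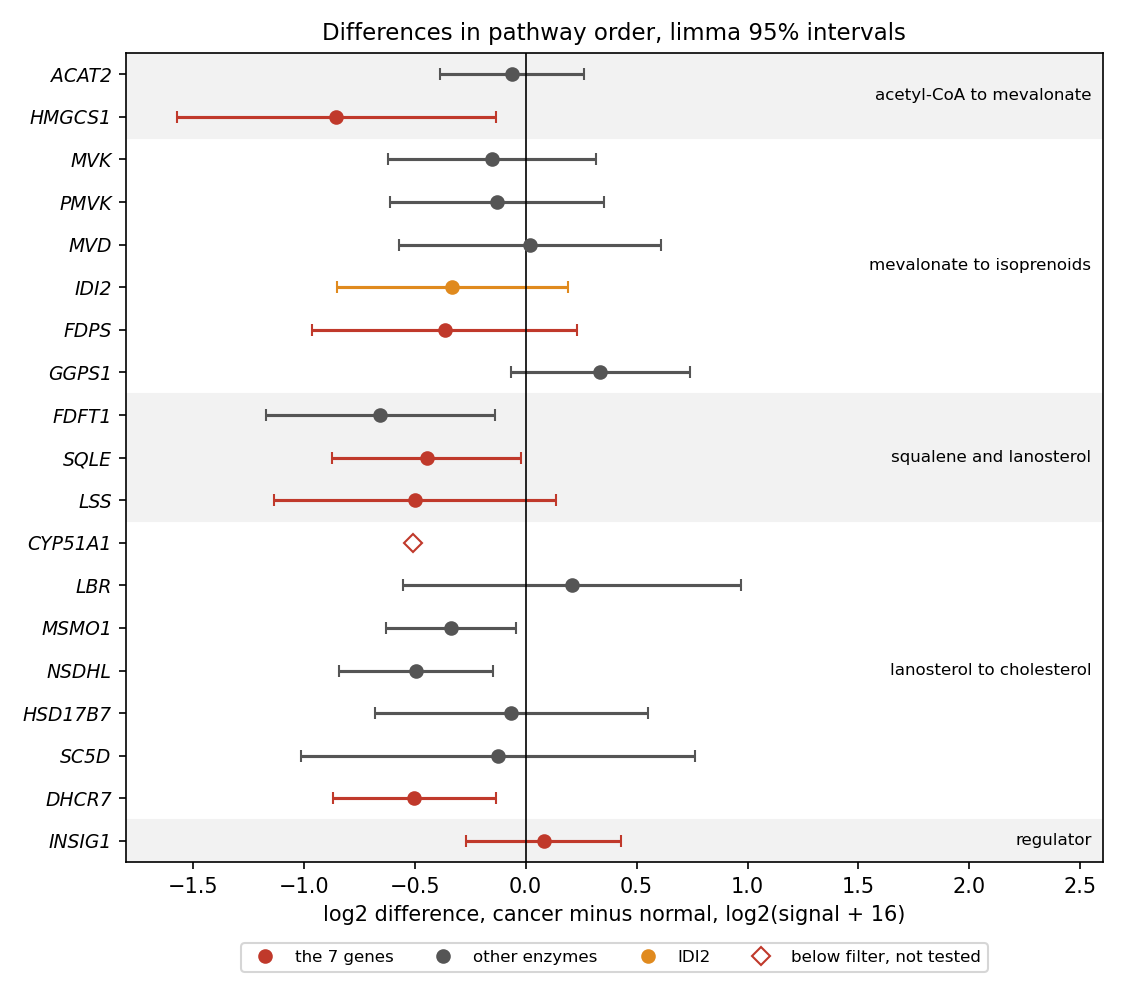
Log2 difference (cancer minus normal) with limma's 95% interval, genes in pathway order from acetyl-CoA at the top to cholesterol, then INSIG1; red, the 7 genes; grey, the other enzymes; orange, IDI2, placed by its name; open diamond, not tested. HMGCS1, FDFT1, SQLE, MSMO1, NSDHL and DHCR7 have intervals below 0, none with an adjusted p under 0.302, and GGPS1 at 0.34 is the highest.

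Of 11 genes of sterol sensing and SREBP release, 9 were tested and 0 passed in either direction (median −0.11; 6 negative and 3 positive). SREBF2, the SREBP that mainly drives cholesterol genes, had 1729, 1613 and 1733 in tumours 4, LB14 and LB11, against 2346, 1690 and 2346 in normal hens 36, LB3 and LB22. Once more LB3 sat among the tumours, and the difference was −0.31 (SE 0.19, limma adjusted p = 0.655). SCAP, the escort of SREBP, had 231, 223 and 257 in the tumours and 356, 287 and 490 in the normal ovaries, without overlap (−0.61, SE 0.25, limma adjusted p = 0.455). SCAP alone of the 9 was lower without overlap, beside 9.41% of all tested genes. Its other tested probe sets had differences of −0.53, with overlap, and −1.14, lower in every tumour as were 8.03% of all tested probe sets. INSIG2, the paralogue of INSIG1, was positive, with 1463, 1518 and 933 in the tumours and 640, 1227 and 804 in the normal ovaries (0.56, SE 0.29, limma adjusted p = 0.577). MBTPS2, a protease that releases SREBP, and NR1H3, a liver X receptor, had differences of −0.42 and −0.16. SREBF1 lay below the filter and was not tested.

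Genes that take up, move or store cholesterol had no member past the threshold (13 tested of 17, 7 negative and 6 positive, median −0.08). SOAT1, which esterifies cholesterol for storage, had 4959, 2778 and 5281 in tumours 4, LB14 and LB11, against 6417, 6301 and 5851 in normal hens 36, LB3 and LB22 (−0.56, SE 0.24, limma adjusted p = 0.471). The lysosomal cholesterol exporter NPC1 and the lipoprotein receptor VLDLR, which brings yolk into the hen's oocyte, were also lower in every tumour, at −0.40 and −0.36. These 3 of the 13 lay lower without overlap on their brightest probe sets, beside 9.41% of all tested genes. On the other tested probe set of SOAT1 and of NPC1 the groups overlapped, with differences of −0.56 and −0.89. LCAT, the enzyme that esterifies cholesterol in plasma lipoproteins, had 768, 369 and 424 in the tumours and 160, 453 and 121 in the normal ovaries. LB3 reached the tumour range here, and the difference was 1.19 (SE 0.46, limma adjusted p = 0.423). APOA1, the main protein of high-density lipoprotein, had a difference of 0.29.

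Fatty acid synthesis, which SREBPs also drive, had 10 of 11 genes tested and 0 past the threshold, with 5 negative and 5 positive differences and a median of −0.07. ACLY, which supplies cytosolic acetyl-CoA to both pathways, had 2482, 2503 and 2940 in tumours 4, LB14 and LB11, against 3211, 3728 and 4226 in normal hens 36, LB3 and LB22, without overlap (−0.49, SE 0.17, limma adjusted p = 0.372). By brightest probe set ACLY alone of the 10 was lower in every tumour, beside 9.41% of all tested genes. On its other, dimmer probe set the groups overlapped, with a difference of −0.27. The synthase FASN, the carboxylase ACACA and the desaturase SCD had overlapping groups on their brightest probe sets and differences of −0.22, −0.33 and −0.38. The other FASN probe set had 1607, 1595 and 1122 in the tumours and 1870, 1827 and 2279 in the normal ovaries. There it was lower in every tumour, as were 8.03% of all tested probe sets (−0.47, SE 0.21, limma adjusted p = 0.487). GPAM, which starts glycerolipid synthesis, was higher in every tumour, as were 8.01% of all tested genes, at 0.39 (SE 0.24, limma adjusted p = 0.663).

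The steroid hormone genes act on the path from cholesterol to steroid hormones, as transporter, enzymes or electron carriers. By brightest probe set all 8 had negative differences, with a median of −2.57, and 0 were past the threshold. On those probe sets 6 were lower in every tumour, beside 9.41% of all tested genes. FDX1 and FDXR, which pass electrons to the mitochondrial enzymes, had differences of −0.14 and −0.29 and overlapping groups. The other probe set of FDXR was positive, at 0.12, also with overlap. Those of HSD3B1 and CYP19A1 were at −2.97 and −2.35. STAR, which carries cholesterol into mitochondria, had 76.6, 187 and 549 in tumours 4, LB14 and LB11, against 3447, 1739 and 2215 in normal hens 36, LB3 and LB22 (limma adjusted p = 0.0636). HSD3B1 had the lowest adjusted p of the 8, with a difference of −3.25 (SE 0.53, limma adjusted p = 0.0616). CYP17A1 and CYP11A1 had differences of −3.29 and −2.92 (limma adjusted p = 0.125 and 0.245). For CYP19A1 and HSD17B1 they were −2.23 and −2.00 (limma adjusted p = 0.236 and 0.212). The means of the steroid and cholesterol lists did not follow the same order of tumours. The mean deviation of the 8 steroid genes from the normal mean was −3.01 in tumour 4, −2.08 in LB14 and −1.49 in LB11. The mean of the 6 cholesterol genes was nearest to normal in tumour 4 and farthest in LB11. By these means LB3 was the lowest normal hen in both lists, at −0.51 for the steroid genes against 0.34 in hen 36 and 0.17 in LB22. Single genes departed from the means. HMGCS1 stood at −1.43 in LB11, against −0.57 in tumours 4 and LB14. By gene, LB14 was the lowest tumour for 3 of the 6 cholesterol genes, LB11 for 2 and tumour 4 for 1. HSD17B1, at −1.32, −1.74 and −2.94 in tumours 4, LB14 and LB11, and FDX1 were lowest in LB11. The other steroid genes were lowest in tumour 4.

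**Figure D5:**
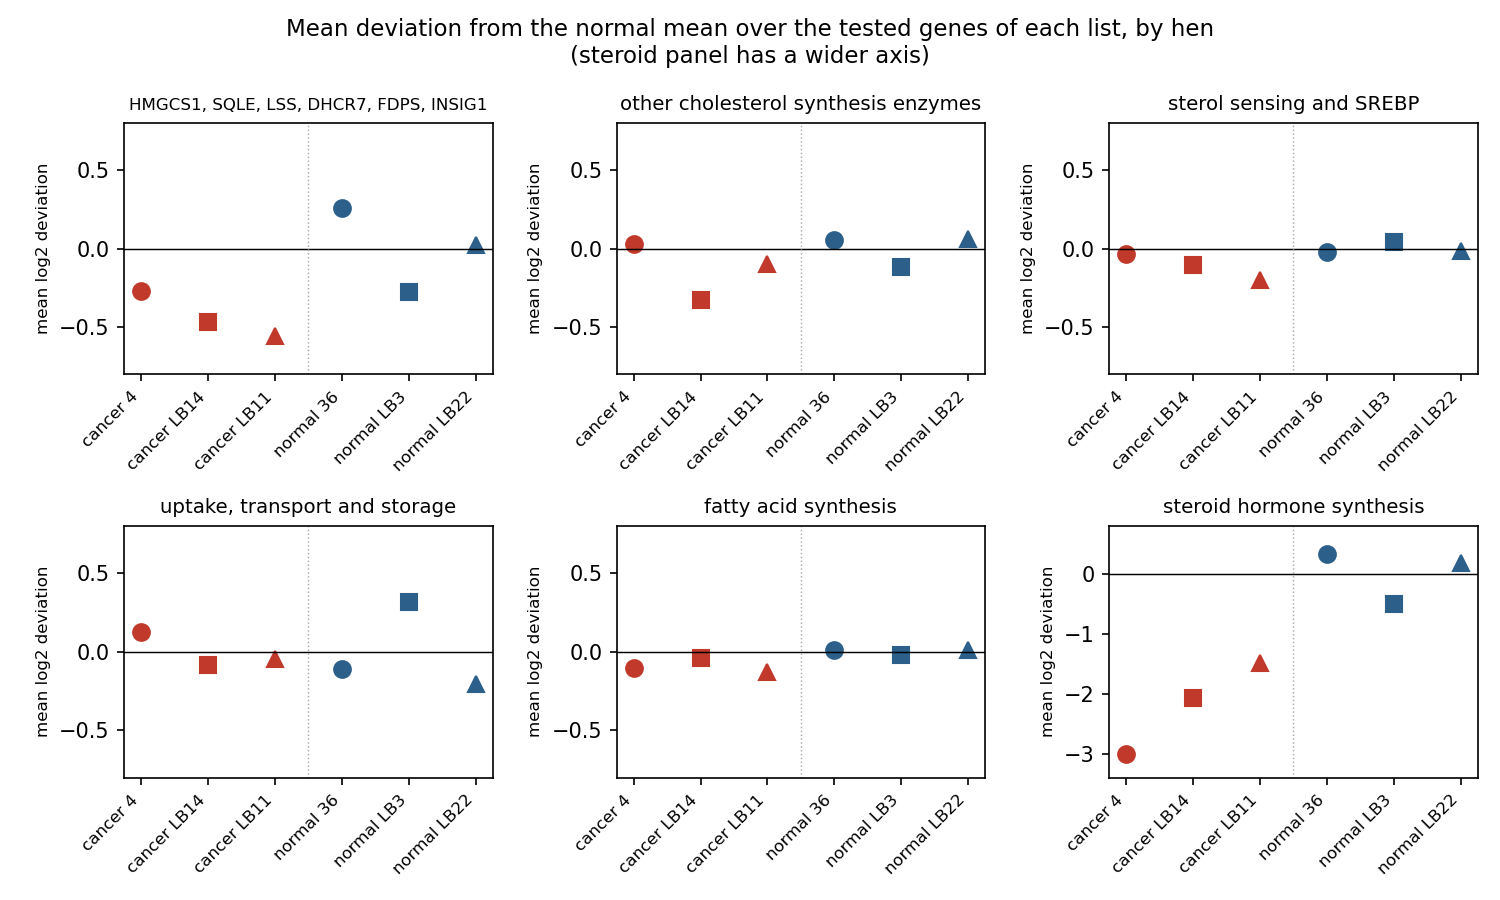
Mean log2 deviation from the normal mean over the tested genes of 6 lists in each hen (red, cancer; blue, normal), with a wider axis for the steroid genes. The 6 cholesterol genes lie at −0.27, −0.47 and −0.56 in tumours 4, LB14 and LB11, the steroid genes at −3.01, −2.08 and −1.49.

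Markers of other cells are given beside these values, and only some of them moved with the groups. Of the 11 granulosa and theca markers all were measured and had negative differences (median −1.59), and 0 passed the threshold. STAR, CYP11A1, HSD3B1, CYP17A1 and CYP19A1 are in both this list and the steroid list, so the lists are not separate observations. All 5 egg-white genes were higher past it, and of 3 measured epithelial markers CDH1 and CLDN3 were, beside 0.365% of all tested genes. However, OVAL was among the genes the study is known for singling out on these samples. The marker lists were also chosen with earlier results of these data known. The epithelial sum was 17817 to 46230 in the tumours and 12701 to 14528 in the normal ovaries, where CLDN3 was not above background. In the normal ovaries that sum consists mostly of EPCAM, at 12487 to 14301. EPCAM overlapped between the groups, with a difference of 0.46 (limma adjusted p = 0.520). The sum of 5 adipocyte markers was 2326 to 3844 in the tumours and 4529 to 5615 in the normal ovaries. Its 4 tested members had unequal differences, with LPL at −1.14, FABP4 at −0.42, ADIPOQ at 0.00 and PPARG at 0.06. LPL was lower in every tumour, beside 9.41% of all tested genes, and the groups overlapped in the other adipocyte markers. For dividing cells the sum was 17649 to 23795 in the tumours and 23858 to 26633 in the normal ovaries. It consists mostly of CCNB2 (matched as CCNB1), with a difference of −0.28. CCNB2 was lower in every tumour, beside 9.41% of all tested genes. The groups overlapped in MKI67, at −0.04, and in TOP2A, at −0.70. Sums of liver, macrophage, fibroblast and oocyte markers overlapped between the groups. Among their members, VCAN of the fibroblast list was lower in every tumour (−1.69, limma adjusted p = 0.233), beside 9.41% of all tested genes. DDX4 of the oocyte list was higher in every tumour (0.32, limma adjusted p = 0.724), beside 8.01%. The groups overlapped in the other members of these lists. The part of these cells in the cholesterol gene values was not tested.

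The genes whose log2 signal followed the mean of the 6 cholesterol genes most closely over the 6 arrays were ARSA, MRPS31, TKTL1, FAM83D and SMAD7, with Pearson correlations of 0.99, 0.99, 0.98, 0.98 and 0.98. They are the highest of 10370 candidate genes over only 6 arrays that share the 2 groups, and are given as a description. SMAD7, an inhibitor of TGF-beta signalling, had 365, 273 and 276 in tumours 4, LB14 and LB11, against 1265, 497 and 760 in normal hens 36, LB3 and LB22. It was picked for its likeness to the mean of the cholesterol genes. Like that mean, it was highest in hen 36 and lowest among normal hens in LB3 (difference −1.33, limma adjusted p = 0.212).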

How the data were processed

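The authors deposited 1 linear signal intensity per probe set and array. GCOS is the software named in the submitters' processing notes, without version or settings. The 2% trimmed mean was 500.1 on every array, so no further normalization was applied. Groups and hen names follow the labels.

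Signals were compared as log2(signal + 16) with limma 3.58.1 in R 4.3.3 (lmFit, eBayes with a trend, two-sided, Benjamini-Hochberg) after leaving out 96 controls and 15376 probe sets with a mean under the 40th percentile (66.9). The step was tested on simulated data whose added changes were all larger than the member differences. That test does not show how often differences as small as those of the members would be called. A background limit of 25.5 to 44.6 was set per array from 59 controls for bacterial transcripts and tags (95th percentile). Names came from the platform's table and, for synonyms, a RefSeq gene table (GRCg7b); all 13 probe sets' gene IDs were in it. The members, the lists and the rule for named genes (the 8 genes, up to 5 per list by p, 8 always named where measured, and the 5 most alike over the arrays) were chosen with earlier results of these data known. Alternatives were other pseudocounts, filters, normalizations, variance models and thresholds, array weights, the title prefix, leaving out each hen and the mean over probe sets. Figures were drawn with matplotlib 3.10.9.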

Additional observations from a re-analysis of the deposited data

How the results depend on the processing

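The 0 of 11 member probe sets past the threshold stayed 0, higher and lower, in all 18 alternatives, and the comparison lists stayed at 0 too, except the steroid genes. Those had 1 lower with a pseudocount of 64, 2 with array weights, 2 with the threshold at 0.1, and from 0 to 4 with a hen omitted (2 without tumour 4, 4 without LB11). The median difference over the 6 genes ran from −0.63 (without LB3) to −0.35 (without hen 36), and no gene changed sign in its 19 alternatives. Leaving out 1 hen moved the number of member probe sets lower in every tumour between 3 and 6. Counts over all probe sets, 54 higher and 10 lower, were 35 and 3 without a trend, 21 and 1 in the LB hens alone, 87 and 24 at 0.1, and, with each hen omitted in turn, 23 to 163 higher and 0 to 25 lower; the lower count was also 6 without the filter and 21 with array weights. The cause was not tested. No paired analysis was possible because the groups share no replicate numbers.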
